A study of Mus musculus with 80 samples.

Results

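Whole lungs of C57Bl/6 wild-type (WT) mice that had inhaled 40 ppm styrene were compared with those of C57Bl/6 WT mice that had inhaled air. The members were the 5 arrays labelled as WT lung at 40 ppm and the 5 labelled as WT lung at dose 0, chosen by these labels alone, which makes 10 of the 80 arrays of the series. All came from adult male animals supplied by Taconic, and the labels call the 5 arrays of a group biological replicates 1 to 5. The mice sat singly in wire-mesh cages, breathed styrene or air for a single period of 6 h, and were killed on the morning of the following day. For direct contrasts, WT lungs at 10 and 120 ppm were used, and for differences in response, lungs at 40 and 0 ppm of CYP2F2 knockout (KO) mice and of CD-1 mice, an outbred stock, with 5 arrays in each group and the same sex, exposure time and day of sampling. The labels do not say how the KO allele was made or in which cells it is lost. Because the whole lung was extracted, fewer cells of a type and less RNA per cell cannot be told apart in any result that follows.

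Styrene is an aromatic solvent used to make plastics. In the mouse airway it is oxidized mainly by CYP2F2, a cytochrome P450 of the club cells, which are the secretory cells of the bronchioles, and the products include reactive oxides that bind glutathione and proteins. Type I interferons act through the receptor IFNAR and the kinases JAK1 and TYK2 on transcription factors that bind the promoters of a large set of antiviral genes. Dividing cells copy their DNA with the MCM helicase, the RFC and GINS complexes and ribonucleotide reductase, and SREBP2 controls the genes that make cholesterol.

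Levels are log2 array signals, a change is the mean of the 40 ppm arrays minus the mean of the 0 ppm arrays in log2 units with its standard error (SE) after the ±, and n = 5 arrays per group throughout. A gene was said to rise or fall when its p from limma, adjusted by the Benjamini-Hochberg method over the 11406 genes tested, was under 0.05. On this rule 13.7% of all genes tested rose and 12.4% fell at 40 ppm, which is the background for every count of a gene list below. By at least 1.5-fold, 351 genes (3.08%) rose and 215 (1.88%) fell, and by at least 4-fold 30 rose and 5 fell. The median change over all genes was -0.01. A stricter view asks that the arrays not overlap: all 5 arrays at 40 ppm lay above all 5 at 0 ppm for 10.1% of genes and below them for 8.28%. Gene lists were chosen by pathway and cell type with earlier results of these data known, so a count describes a list and is no independent evidence of its direction.

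The labelled tissue was checked against its defining genes, which were bright. Sftpc, surfactant protein C of alveolar type 2 cells, read 13.82 to 13.88 at 40 ppm, and Scgb1a1, the secretoglobin of club cells, 13.65 to 13.76. Replicate 3 at 40 ppm and replicate 1 at 0 ppm stood apart from the other 18 WT arrays. They carried genes of squamous epithelium and skeletal muscle: the keratin Krt4 read 12.57 in 40 ppm replicate 3 and 12.48 in 0 ppm replicate 1, against 3.17 to 7.44 in the other 18, and the skeletal actin Acta1 read 11.48 and 8.51 there, against 3.27 to 5.84. Each group held 1 such array. Without both, 1314 genes (11.5%) rose and 1061 (9.3%) fell. Of the genes named below, Arntl, Bpifa1, Cd8a, Fkbp5, Inmt, Pparg, Scd1 and Scgb1a1 lost their call without both. The summed level of cardiac muscle genes, which whole lung carries in the walls of its veins, varied among arrays of both groups (list means of 5.46 to 6.74 at 40 ppm and 5.78 to 7.02 at 0 ppm), and 0 of its 11 tested members rose or fell, although 3 fell without replicate 4 at 0 ppm. The highest correlation between any 2 of the 80 arrays was 0.9968, and no columns were identical.

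**Figure D1:**
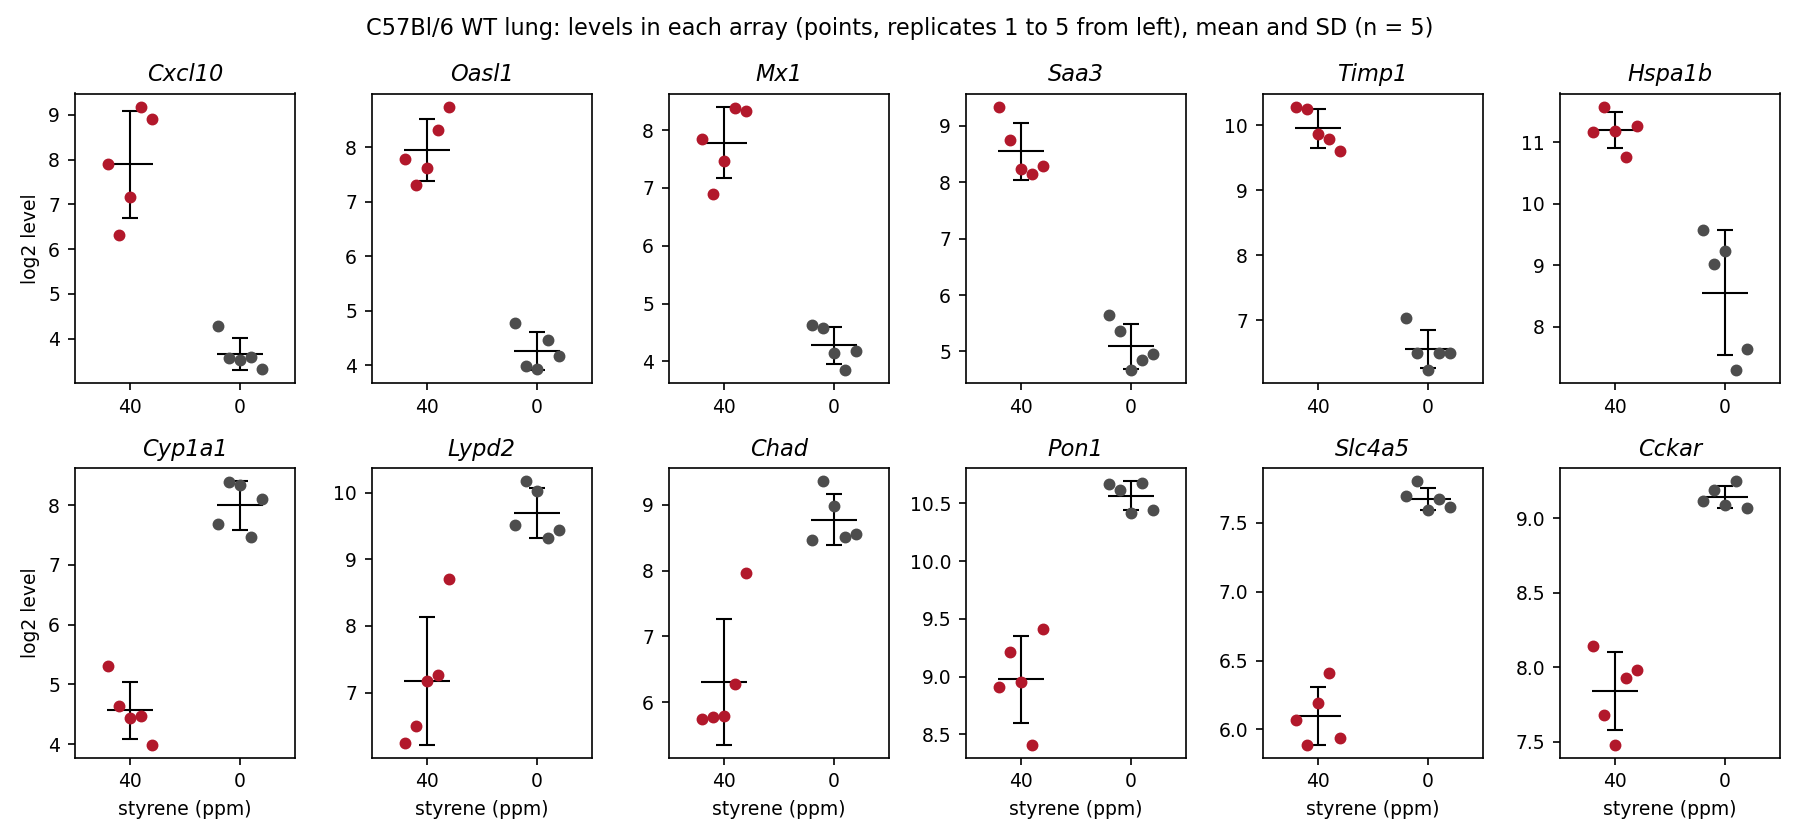
Log2 signal (vertical axes) of 12 leading genes in each of the 5 arrays at 40 ppm, drawn left, and the 5 at 0 ppm, drawn right, with replicates 1 to 5 from left to right in each group and bars for the mean and SD. Cxcl10 lay between 6.32 and 9.18 at 40 ppm, against 3.33 to 4.28 at 0 ppm, while Cyp1a1 lay between 3.99 and 5.31 at 40 ppm, against 7.47 to 8.38 at 0 ppm.

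Interferon-induced antiviral genes rose in every tested member. Of 26 such genes named on the array 25 were tested, all 25 rose at 40 ppm, and for all 25 the arrays of the groups did not overlap. The median change was 1.91, and with dim genes kept in the fit 26 of 26 rose. Rsad2, whose protein viperin makes an antiviral nucleotide, read 10.45, 9.56, 10.28, 10.69 and 10.84 in replicates 1 to 5 at 40 ppm, against 7.60, 7.31, 6.53, 6.74 and 7.07 at 0 ppm. All 5 arrays at 40 ppm lay well above all 5 at 0 ppm, and the change was 3.31 ± 0.26 (SE, adjusted p = 7.15e-08). Ifit1, which binds viral RNA that lacks the host cap, read 10.34, 9.71, 10.31, 10.75 and 10.94 at 40 ppm, against 8.03, 7.72, 7.66, 7.41 and 7.08 at 0 ppm (2.83 ± 0.23). Replicate 2 at 40 ppm was the lowest of its group for both genes, and for the mean of the list as well: the list mean was 8.43, 7.97, 8.38, 8.78 and 8.97 at 40 ppm, against 6.89, 6.83, 6.67, 6.73 and 6.68 at 0 ppm.

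Promoters are shown for 4 interferon-induced genes whose arrays lay far apart, each of which held a match, and for Cyp1a1, whose level fell most. They are the 250 bases before the RefSeq start of the gene (GRCm38.p6), 5′ to 3′ on the gene's strand. Capitals in the first 4 mark matches to GAAANNGAAA, the core of the interferon-stimulated response element, and in Cyp1a1 a match to GCGTG, the core bound by the aryl hydrocarbon receptor (AHR), each searched on both strands.
Cxcl10: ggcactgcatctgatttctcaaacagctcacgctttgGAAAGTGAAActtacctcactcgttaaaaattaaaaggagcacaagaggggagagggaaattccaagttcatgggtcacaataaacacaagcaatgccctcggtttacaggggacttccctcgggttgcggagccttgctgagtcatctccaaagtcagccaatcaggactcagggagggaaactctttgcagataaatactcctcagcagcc
Rsad2: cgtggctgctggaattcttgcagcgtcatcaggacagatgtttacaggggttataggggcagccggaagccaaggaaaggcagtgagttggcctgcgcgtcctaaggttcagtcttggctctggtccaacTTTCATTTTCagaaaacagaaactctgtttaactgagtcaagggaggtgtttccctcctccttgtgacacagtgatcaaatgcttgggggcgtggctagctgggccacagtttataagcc
Ifit1: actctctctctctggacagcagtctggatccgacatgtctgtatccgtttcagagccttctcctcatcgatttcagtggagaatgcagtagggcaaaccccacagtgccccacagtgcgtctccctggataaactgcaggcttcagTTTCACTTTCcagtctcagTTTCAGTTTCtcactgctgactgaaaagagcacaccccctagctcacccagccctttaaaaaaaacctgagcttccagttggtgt
Ifit3: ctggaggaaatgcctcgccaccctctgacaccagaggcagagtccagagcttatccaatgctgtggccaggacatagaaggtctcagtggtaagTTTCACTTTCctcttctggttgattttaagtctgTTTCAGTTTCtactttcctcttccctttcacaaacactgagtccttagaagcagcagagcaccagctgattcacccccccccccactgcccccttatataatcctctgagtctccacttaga
Cyp1a1: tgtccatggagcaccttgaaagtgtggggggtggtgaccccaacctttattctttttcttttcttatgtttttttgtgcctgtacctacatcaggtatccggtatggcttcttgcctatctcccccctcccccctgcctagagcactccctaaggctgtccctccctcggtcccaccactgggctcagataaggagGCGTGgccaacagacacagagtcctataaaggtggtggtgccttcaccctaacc
The windows are chr5:92348890-92349139 on the minus strand for Cxcl10, chr12:26456453-26456702 on the minus strand for Rsad2, chr19:34640639-34640888 on the plus strand for Ifit1, chr19:34583279-34583528 on the plus strand for Ifit3 and chr9:57697363-57697612 on the plus strand for Cyp1a1. Positions count back from the start, the base before it being -1. The match lay at -213 to -204 in Cxcl10 and at -120 to -111 in Rsad2. Ifit1 held 2 matches (-104 to -95 and -85 to -76), as did Ifit3 (-156 to -147 and -122 to -113), and Cyp1a1 held its GCGTG at -54 to -50. Of the 25 antiviral genes tested 18 were in the promoter table, and 6 of these (33.3%) held GAAANNGAAA: Ddx60, Ifit1, Ifit3, Oas1g, Rsad2 and Trim30a. Of all genes in that table, 3.46% held it and 30.9% held GCGTG. The interferon-induced promoters shown all held a match, so they do not stand for the antiviral list. A match describes these letters only and does not show binding.

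Among the other antiviral effectors, the oligoadenylate synthetase-like gene Oasl1 read 7.78, 7.30, 7.61, 8.31 and 8.74 at 40 ppm, against 4.78, 3.99, 3.93, 4.46 and 4.18 at 0 ppm, a change of 3.68 ± 0.25 (12.8-fold, adjusted p = 1.1e-08). Mx1, a gene of the dynamin-like GTPase family, read 7.85, 6.90, 7.47, 8.38 and 8.33 at 40 ppm, against 4.63, 4.58, 4.14, 3.85 and 4.18 at 0 ppm (3.51 ± 0.26). Neither gene's groups overlapped. For both, some air arrays lay below the median of all values (4.28), so the size of these rises rests on dim signals. Zbp1, a sensor of Z-form nucleic acid, rose by 2.64 ± 0.24, Usp18, which removes ISG15 from proteins, by 2.20 ± 0.19, Oasl2 by 2.33 ± 0.22 and Ifit3 by 2.33 ± 0.20. The smallest rise of the list was that of Ifitm3, a membrane protein that blocks viral entry (0.41 ± 0.07, adjusted p = 0.000237). Gm9706, a predicted gene, rose by 3.66 ± 0.22, although its second probe set moved by 0.50. Apol9a, an apolipoprotein L gene with a near-identical neighbour, rose by 3.20 ± 0.27, and Sectm1b by 2.49 ± 0.30, with its second probe set at 0.67.

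Of the genes upstream of these effectors, some rose and others did not pass. Irf7, the transcription factor that amplifies interferon production, read 8.45, 8.03, 8.53, 9.01 and 9.21 at 40 ppm, against 6.15, 5.67, 5.81, 5.81 and 6.11 at 0 ppm (2.74 ± 0.22, adjusted p = 9.81e-08). The RNA sensors Dhx58 (2.30 ± 0.21), Ifih1 (1.03 ± 0.16) and Ddx58 (0.87 ± 0.13) and the endosomal RNA receptor Tlr3 (0.63 ± 0.11) rose, as did the signalling factors Stat2 (1.24 ± 0.14) and Irf9 (0.63 ± 0.10). Ifnar1, a chain of the receptor, moved by -0.11 ± 0.07 (adjusted p = 0.279) and the kinase gene Jak1 by 0.01 ± 0.05 (0.932). Irf1 read 9.21 to 9.63 at 40 ppm and 9.26 to 9.42 at 0 ppm, and Irf3, the factor that starts interferon transcription, moved by -0.04 ± 0.05 (0.642). Other probe sets of Irf3 and Jak1 did not all have the sign given, and another probe set of Dhx58 moved by 0.14. Of 21 genes of this list tested, 10 rose and 0 fell, with a median of 0.13.

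Genes that interferon gamma is best known to induce moved by smaller amounts. Of 17 tested 11 rose and 0 fell (median 0.37). The immunity-related GTPases Irgm1 (1.39 ± 0.16), Iigp1 (1.44 ± 0.23) and Tgtp1 (1.35 ± 0.18), which act on membranes around intracellular microbes, rose, and Nlrc5, the activator of MHC class I genes, rose by 0.91 ± 0.19. Psme2, a subunit of the proteasome regulator, rose by 0.37 ± 0.06. The guanylate-binding proteins Gbp2 (0.22 ± 0.17, adjusted p = 0.357) and Gbp7 (0.13 ± 0.17, 0.604) and the class I heavy chain H2-K1 (-0.06 ± 0.06, 0.502, with probe sets of differing sign) did not pass. Tgtp1 has a near-identical copy that its probe set may also read.

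**Figure D2:**
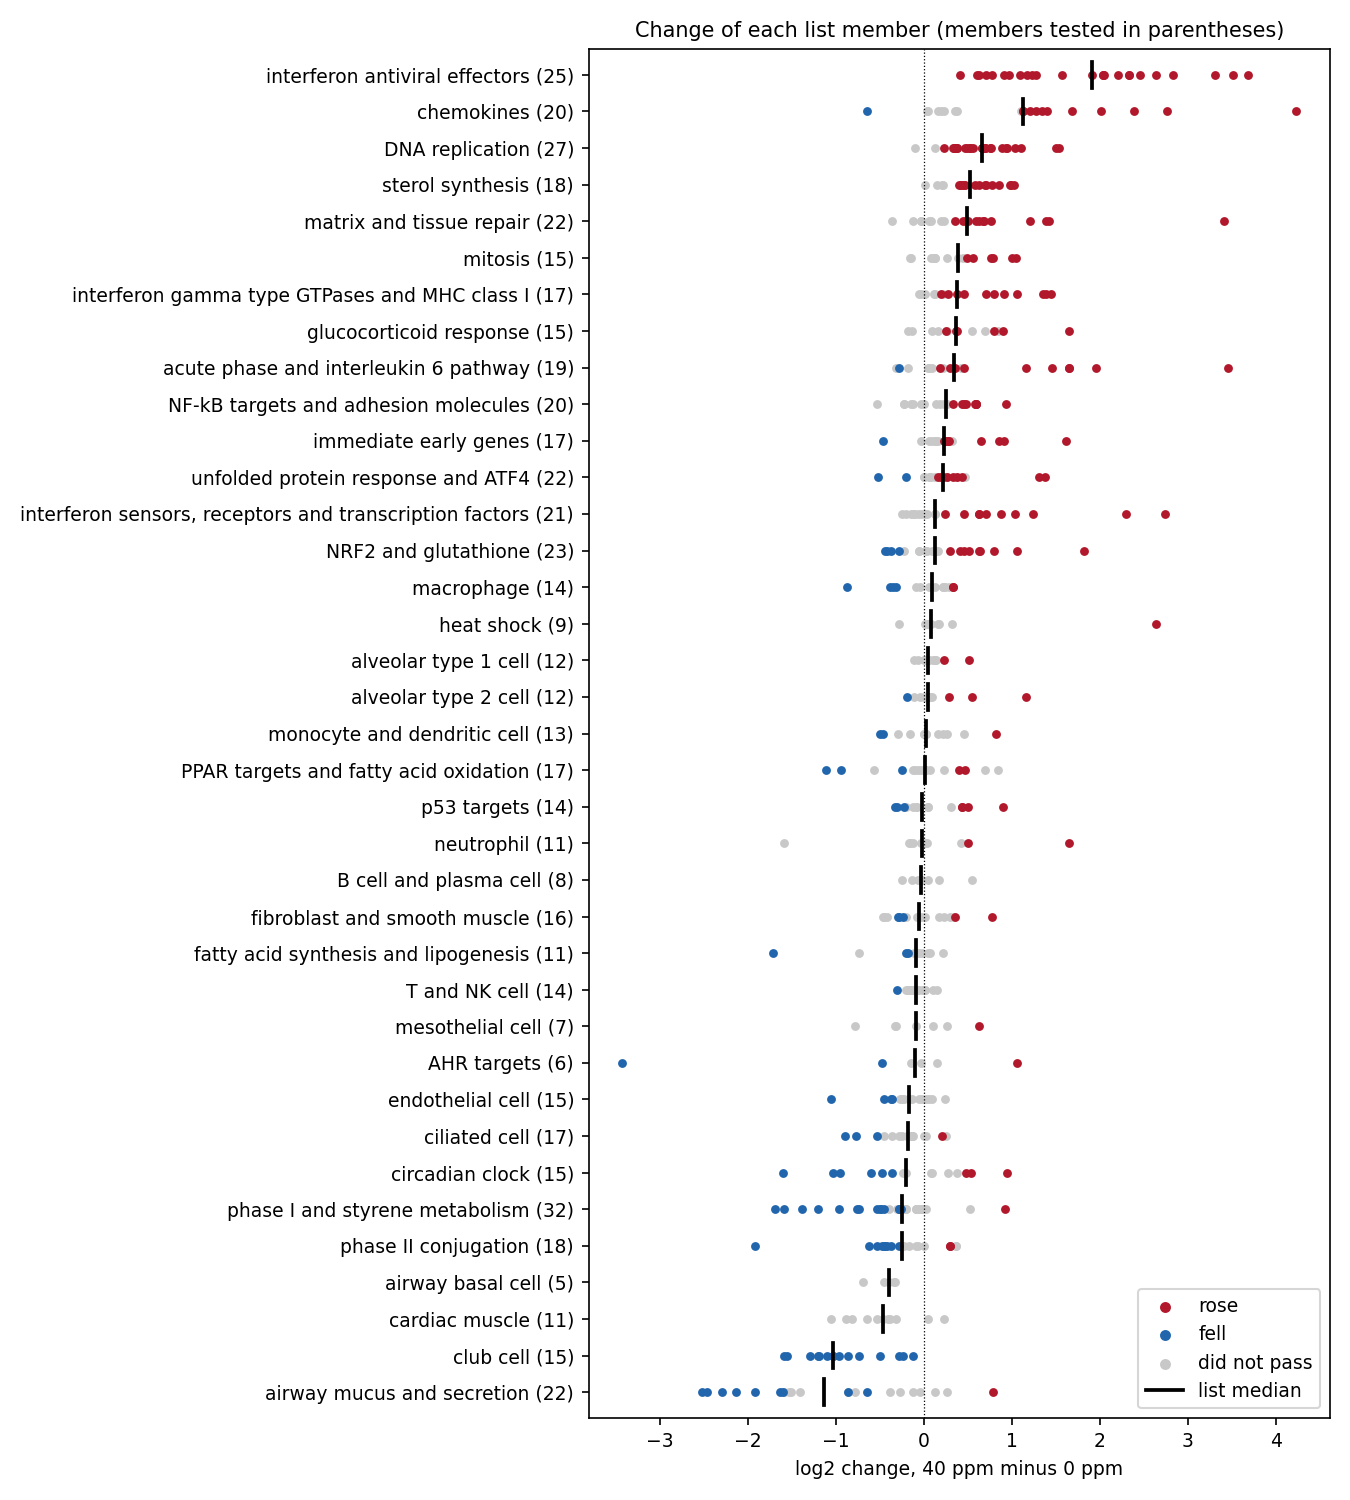
Log2 change (40 ppm minus 0 ppm, horizontal axis) of every tested member of 37 gene lists, 1 row per list, with red for members that rose, blue for members that fell, grey for members that did not pass, and a black bar at the list median. The antiviral list (median 1.91) lies wholly right of 0 and the club cell list (median -1.04) wholly left of it.

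Chemokines that attract monocytes and activated lymphocytes rose. Of 20 chemokine genes tested 11 rose and 1 fell, with a median of 1.13. With dim genes kept in the fit 12 of 23 rose and 1 fell. Cxcl10, which draws T and NK cells through the receptor CXCR3, had the largest change of all genes tested. It read 7.91, 6.32, 7.16, 9.18 and 8.90 at 40 ppm, against 4.28, 3.58, 3.53, 3.59 and 3.33 at 0 ppm, a rise of 4.23 ± 0.41 (18.8-fold, adjusted p = 7.01e-07). Its 40 ppm arrays spread widely, and none came near the air arrays. The air arrays lay near or below the median of all values (4.28), so the size of the fold rests on a dim signal. Ccl12, a monocyte chemokine, read 6.70, 6.17, 6.55, 7.04 and 7.33 at 40 ppm, against 4.03, 4.13, 4.10, 4.14 and 3.60 at 0 ppm (2.76 ± 0.18). The air arrays of Ccl12 all lay below that median too. Its relatives Ccl7 (2.39 ± 0.25), Ccl2 (2.01 ± 0.23) and Ccl8 (1.68 ± 0.23), which act through CCR2 and related receptors, rose as well. Ccl17 (1.34 ± 0.19) and Ccl22 (1.27 ± 0.13), the ligands of CCR4 that dendritic cells make, were higher too, as was Cxcl14 (1.20 ± 0.21). The second probe set of Cxcl14 moved by 0.10. The membrane-bound chemokine Cx3cl1 fell by 0.65 ± 0.15 on the log2 scale, with 5.8, 5.82, 5.14, 5.95 and 5.97 at 40 ppm, against a range of 6.10 to 6.58 at 0 ppm.

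The acute phase and interleukin 6 pathway showed a few large rises. Of 19 members tested 10 rose and 1 fell (median 0.34). Saa3, a serum amyloid that lung epithelium and macrophages make, read 9.34, 8.75, 8.23, 8.14 and 8.28 at 40 ppm, against 5.64, 5.36, 4.67, 4.84 and 4.96 at 0 ppm (3.46 ± 0.40, adjusted p = 5.6e-06). Il6 itself read 5.44, 4.17, 5.03, 5.31 and 4.71 at 40 ppm, against 3.07, 2.96, 2.83, 2.94 and 3.04 at 0 ppm (1.96 ± 0.40). The arrays of the groups overlapped for neither gene. Socs3, the feedback inhibitor of the pathway, rose by 1.45 ± 0.17, Saa1 by 1.65 ± 0.34, and Lcn2, a siderophore-binding protein of neutrophils and epithelium, by 1.65 ± 0.20. The alarmin Il33 rose by 1.16 ± 0.18 and the oncostatin M receptor Osmr by 0.35 ± 0.07, while haptoglobin, Hp, fell by 0.29 ± 0.06 on the log2 scale. Fgg, the gamma chain of fibrinogen, read 7.09, 7.28, 6.94, 6.49 and 6.62 at 40 ppm, against 4.55, 4.76, 3.79, 4.59 and 4.45 at 0 ppm (2.45 ± 0.31).

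NF-kB targets moved less. Of 20 tested 9 rose and 0 fell (median 0.25). Cd14, the co-receptor for endotoxin, rose by 0.59 ± 0.11, Birc3, an inhibitor of apoptosis, by 0.43 ± 0.07, Bcl3, a nuclear partner of NF-kB, by 0.59 ± 0.11, and Tnfaip3, its feedback inhibitor, by 0.48 ± 0.11. Selp, the adhesion molecule P-selectin, rose by 0.93 ± 0.28 (adjusted p = 0.018), and that call was lost without 1 of the replicates (0.0548). Ptgs2, the inducible prostaglandin synthase, moved by -0.54 ± 0.21 (0.0707).

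Genes of tissue repair rose too. Of 22 matrix and repair genes tested 13 rose and 0 fell, with a median of 0.49. Timp1, an inhibitor of matrix metalloproteinases, read 10.29, 10.25, 9.87, 9.79 and 9.60 at 40 ppm, against 7.03, 6.50, 6.23, 6.49 and 6.50 at 0 ppm (3.41 ± 0.33, adjusted p = 8.8e-07). The groups lay far apart, with little spread inside either. Hbegf, a ligand of the EGF receptor, rose by 1.39 ± 0.24, the matrix glycoprotein Tnc by 1.42 ± 0.32, elastin, Eln, by 0.76 ± 0.19, and the cross-linking enzyme Lox by 0.68 ± 0.18. Among the proteases Mmp3 (1.21 ± 0.18) and Mmp14 (0.48 ± 0.08) rose, as did the urokinase receptor Plaur (0.62 ± 0.11), while Mmp2 moved by -0.37 ± 0.17 (0.109). Prss22, a serine protease of the airway, read 6.05, 7.30, 7.30, 6.74 and 7.05 at 40 ppm, against 3.82, 3.38, 3.91, 4.01 and 3.73 at 0 ppm (3.12 ± 0.44, 8.68-fold). Acta2, smooth muscle actin, rose by 0.77 ± 0.13, and the keratins Krt19 (0.63 ± 0.10) and Krt7 (0.51 ± 0.09), structural proteins of simple epithelia, rose. The second probe set of Acta2 moved by 0.06.

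Genes of oxidant defence divided into inducible enzymes that rose and glutathione transferases that fell. Of 23 NRF2 and glutathione genes tested 9 rose and 4 fell (median 0.13). Hmox1, which degrades heme, read 8.06, 8.21, 7.95, 7.49 and 7.84 at 40 ppm, against 6.00, 6.18, 6.10, 5.62 and 6.51 at 0 ppm (1.82 ± 0.20). Nqo1, a quinone reductase under the control of both NRF2 and AHR, read 6.29 to 6.69 at 40 ppm, against 5.17 to 5.83 at 0 ppm (1.06 ± 0.11). Gclc, the catalytic subunit of glutathione synthesis, rose by 0.62 ± 0.08, and the reductases Txnrd1 and Gsr rose by 0.51 ± 0.09 and 0.45 ± 0.08. The transferases that join glutathione to reactive compounds fell: Gstm1 by 0.44 ± 0.07, Gstm2 by 0.38 ± 0.05, and the microsomal Mgst1 by 0.28 ± 0.05 on the log2 scale. Over 18 genes of conjugation tested 2 rose and 9 fell, with Gstk1 at -0.53 ± 0.08 and Gstt3 at -0.42 ± 0.07. Gstm1, Gstm2 and Mgst1 stand in this list as well, so the counts of both lists share these falls.

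Among enzymes of the first phase of foreign compound metabolism more fell than rose. Of 32 tested 1 rose and 14 fell (median -0.25). Cyp2f2, which acts on styrene, read 12.37, 12.13, 12.04, 12.17 and 12.59 at 40 ppm, against 13.19, 13.27, 13.26, 13.20 and 13.22 at 0 ppm (-0.97 ± 0.08, adjusted p = 1.16e-07). The 5 air arrays lay close together, and the highest array at 40 ppm was replicate 5. The paraoxonase Pon1 read 8.91, 9.21, 8.95, 8.41 and 9.41 at 40 ppm, against 10.67, 10.62, 10.42, 10.68 and 10.44 at 0 ppm (-1.59 ± 0.15). Aox3, an aldehyde oxidase, read 8.41 to 8.72 at 40 ppm, against 9.70 to 9.89 at 0 ppm (-1.21 ± 0.09), and the aldehyde dehydrogenase Aldh1a7 fell by 0.74 ± 0.07. Ephx1, the epoxide hydrolase that opens styrene oxide, fell by 0.54 ± 0.07 and the carbonyl reductase Cbr2 by 0.50 ± 0.06. The carboxylesterases, a cluster of similar genes, went both ways: Ces1f fell by 1.69 ± 0.31 and Ces1d by 0.76 ± 0.08, while Ces1g, the 1 member that rose, did so by 0.92 ± 0.13.

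Cyp1a1, the best known target of AHR, fell more than any other gene tested. It read 5.31, 4.63, 4.43, 4.47 and 3.99 at 40 ppm, against 7.68, 8.38, 8.34, 7.47 and 8.11 at 0 ppm, a change of -3.43 ± 0.40 (10.8-fold lower, adjusted p = 6.67e-06). Of 6 AHR targets tested 1 rose (Nqo1) and 2 fell, so the list did not move one way.

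DNA replication genes rose nearly throughout. Of 27 tested 25 rose and 0 fell (median 0.66), and 19 had arrays that did not overlap. With dim genes kept in the fit 26 of 28 rose. Rrm2, the small subunit of ribonucleotide reductase, read 6.09, 6.03, 6.15, 6.56 and 6.26 at 40 ppm, against 4.72, 5.14, 4.77, 4.49 and 4.49 at 0 ppm (1.5 ± 0.12). Uhrf1, which carries DNA methylation through replication, rose by 1.54 ± 0.12. The polymerase subunit Pole (1.03 ± 0.12), the clamp loader subunit Rfc4 (0.94 ± 0.11), the helicase subunits Gins2 (0.89 ± 0.10) and Mcm6 (0.66 ± 0.08) and the licensing factor Cdt1 (0.69 ± 0.09) rose with it. The list mean was 6.37, 6.18, 6.23, 6.58 and 6.37 at 40 ppm, against 5.77, 5.79, 5.68, 5.66 and 5.59 at 0 ppm.

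Genes of mitosis were less uniform. Of 15 tested 6 rose and 0 fell (median 0.39), and for 0 of the 15 were the groups free of overlap. Cdk1, the kinase that starts mitosis, read 6.35, 5.98, 6.36, 7.27 and 6.90 at 40 ppm, against 5.69, 6.33, 5.41, 5.15 and 5.06 at 0 ppm (1.04 ± 0.23, adjusted p = 0.00252). Replicate 4 at 40 ppm was the highest of its group, and replicate 2 at 0 ppm lay among the styrene arrays. Top2a, which untangles chromosomes, rose by 1.00 ± 0.21, with another of its probe sets at -0.01. Ccna2 (0.78 ± 0.21), Birc5 (0.76 ± 0.18) and Aurkb (0.56 ± 0.15), which drive or guard chromosome separation, rose.

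Cholesterol synthesis rose as a chain of enzymes. Of 18 genes tested 14 rose and 0 fell, with a median of 0.52. Hmgcs1, which makes HMG-CoA, read 4.91, 4.98, 4.83, 4.96 and 4.63 at 40 ppm, against 4.12, 3.93, 4.08, 3.88 and 4.04 at 0 ppm (0.85 ± 0.12). Later steps rose by similar amounts: Idi1 and Fdps, which build farnesyl diphosphate, by 0.70 ± 0.11 and 0.63 ± 0.13, the squalene epoxidase Sqle by 0.69 ± 0.11, the lanosterol demethylase Cyp51 by 0.98 ± 0.14 and Hsd17b7 by 1.02 ± 0.16. Another probe set moved by 0.21 for Cyp51 and by 0.04 for Hsd17b7. Fatty acid synthesis did not share the rise of the cholesterol genes. Of its 11 genes tested 0 rose and 3 fell, among them the desaturase Scd1 (-0.21 ± 0.06) and Thrsp (-1.72 ± 0.56), and each of these calls was lost in several of the fits that left out 1 array. The list had 0 falls without replicate 3 at 0 ppm, 1 without replicates 1, 2 or 4 at 40 ppm or replicates 2 or 5 at 0 ppm, each left out alone, and 2 without the pair of arrays that stood apart. Thrsp is also an adipocyte gene, and the adipose list had a median of -0.40 with 1 of 8 members up and 1 down. Without the pair of arrays that stood apart its median was -0.84, with 0 up and 1 down, and with 1 array left out the median ran from -0.26 (without replicates 1 or 2 at 40 ppm or replicate 5 at 0 ppm) to -0.65 without replicate 4 at 0 ppm and -0.73 without replicate 3 at 40 ppm. The part of adipose tissue in these falls was not tested.

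**Figure D3:**
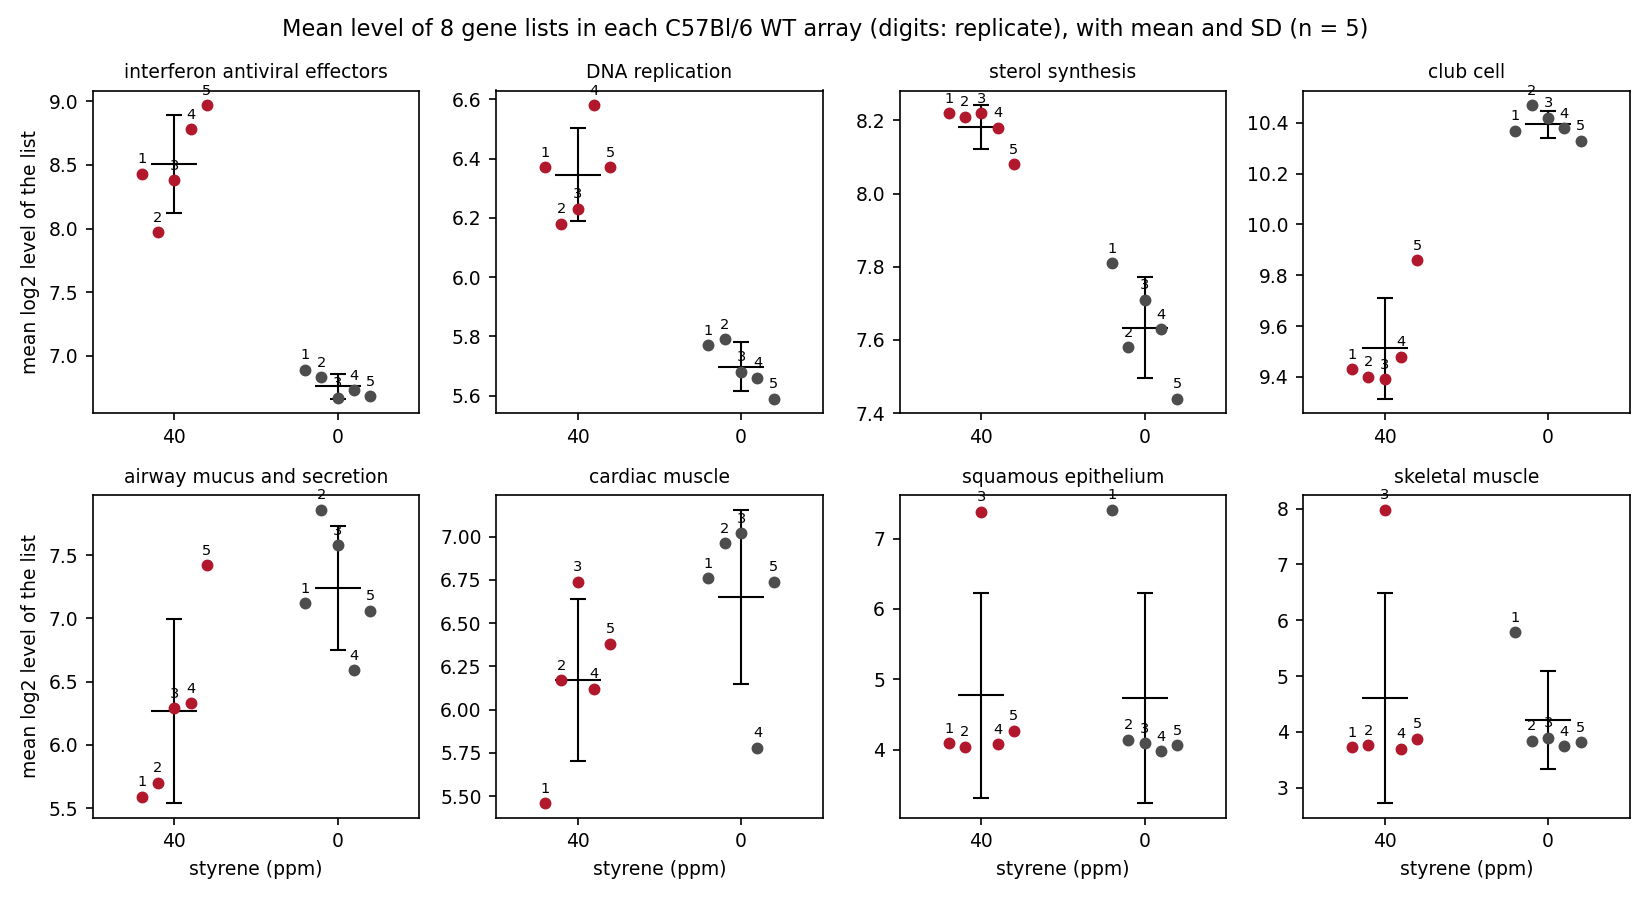
Mean log2 signal (vertical axes) over the members on the array of 8 gene lists in each array, 40 ppm drawn left and 0 ppm right, replicates 1 to 5 from left to right. Antiviral, DNA replication and sterol genes were higher in all 5 arrays at 40 ppm and club cell genes lower, while squamous (7.38 and 7.41) and skeletal muscle genes (7.98 and 5.79) were high in 1 array of each group.

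Club cell genes fell as a group. Of 16 named on the array 15 were tested, 0 rose and 15 fell, the median was -1.04, and for 11 all arrays at 40 ppm lay below all at 0 ppm. With dim genes kept in the fit 14 fell, and 13 fell without the pair of arrays that stood apart. Aox3, Aldh1a7, Cbr2, Cyp2f2 and Pon1 stand both in this list and in that of first-phase enzymes above. Hp stands both here and in the acute phase list, so the counts of these lists share genes. Scgb3a2, a secretoglobin, read 12.10, 11.99, 12.10, 12.28 and 12.70 at 40 ppm, against 13.27, 13.38, 13.42, 13.28 and 13.31 at 0 ppm (-1.10 ± 0.12). Cckar, the receptor for cholecystokinin, read 8.14, 7.68, 7.48, 7.93 and 7.98 at 40 ppm, against 9.12, 9.19, 9.09, 9.25 and 9.07 at 0 ppm (-1.30 ± 0.11). The tight-junction gene Cldn10 fell by 1.04 ± 0.11 and the potassium channel Kcnk2 by 1.04 ± 0.11. Scgb1a1, the most abundant club cell product, changed least: it read 13.65 to 13.76 at 40 ppm, against 13.80 to 13.85 at 0 ppm (-0.12 ± 0.04, adjusted p = 0.0365). That call was lost in 8 of the 10 fits that left out 1 array, and the level lies near the top of the scale of these arrays. Replicate 5 at 40 ppm had the highest list mean of its group, 9.86, against 9.39 to 9.48 in replicates 1 to 4 and 10.33 to 10.47 at 0 ppm.

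Mucus and secretion genes of the larger airways varied widely within the 40 ppm group. Of 22 tested 1 rose and 9 fell (median -1.14). Muc5b, the main gel-forming mucin of the mouse airway, read 4.89, 5.19, 6.35, 6.73 and 8.18 at 40 ppm, against 8.03, 9.35, 8.81, 7.76 and 8.10 at 0 ppm (-2.14 ± 0.56, adjusted p = 0.00861). Replicates 1 and 2 at 40 ppm were far below every air array, and replicate 5 lay among them. Bpifb1, a secreted defence protein, read 6.99, 7.42, 9.0, 9.03 and 10.95 at 40 ppm, against 10.75, 11.81, 11.66, 9.78 and 10.87 at 0 ppm (-2.30 ± 0.64). Lypd2 and Chad, both markers of airway secretory epithelium in this list, kept apart from the air arrays. Lypd2 read 6.24, 6.50, 7.17, 7.27 and 8.70 at 40 ppm, against 9.51, 10.17, 10.03, 9.32 and 9.44 at 0 ppm (-2.52 ± 0.38), and Chad, the matrix protein chondroadherin, 5.74, 5.77, 5.79, 6.28 and 7.97, against 8.46, 9.36, 8.98, 8.52 and 8.56 (-2.47 ± 0.38). Pigr, which carries antibodies into the airway, fell by 1.60 ± 0.33.

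Replicate 5 at 40 ppm gave the highest value of its group for each of these 5 genes, and the list mean was 5.59, 5.70, 6.29, 6.33 and 7.42 at 40 ppm, against 7.12, 7.86, 7.58, 6.59 and 7.06 at 0 ppm. Without it 14 of the 22 fell, with a median of -1.53 (over all genes 13.3% rose and 12.9% fell), and without the pair of arrays that stood apart 7 fell. Bpifa1, which read 9.7 to 13 at 40 ppm and 11.9 to 13.2 at 0 ppm, was called (adjusted p = 0.0334) but lost in 6 of the 10 fits that left out 1 array. Muc4, a membrane mucin, was the member that rose (0.78 ± 0.17), and another of its probe sets moved by -0.03.

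Genes of ciliated cells, which share the airway with these cells, mostly did not pass. Of 17 tested 1 rose and 3 fell (median -0.18), and without replicate 5 at 40 ppm 6 fell. Ccdc153 read 9.24, 9.23, 9.13, 9.32 and 10.04 at 40 ppm, against 10.09, 10.51, 10.49, 10.20 and 10.19 at 0 ppm (-0.90 ± 0.16), so replicate 5 was again the highest. Tppp3 fell by 0.53 ± 0.08 and Cdhr3 by 0.77 ± 0.21, while Foxj1, the master regulator of motile cilia, moved by 0.25 ± 0.19 (adjusted p = 0.372). Tubb4b, a tubulin, was the member that rose (0.20 ± 0.07), a call lost in 6 of the 10 fits that left out 1 array.

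Further genes with large falls belong to none of these lists. Slc4a5, a bicarbonate transporter, read 6.07, 5.89, 6.19, 6.41 and 5.94 at 40 ppm, against 7.69, 7.80, 7.59, 7.67 and 7.61 at 0 ppm (-1.57 ± 0.11). Mycl, a member of the Myc family, read 4.00, 3.93, 4.71, 4.20 and 4.07 at 40 ppm, against 6.03, 6.39, 6.16, 6.01 and 6.02 at 0 ppm (-1.94 ± 0.18). In both genes more than 1 log2 unit lay between the groups. Dcdc2a, a doublecortin-domain gene (-1.57 ± 0.11), the asialoglycoprotein receptor Asgr1 (-1.55 ± 0.23), the medium-chain acyl-CoA synthetase Acsm1 (-1.53 ± 0.25), the BMP receptor Bmpr1b (-1.47 ± 0.16), the claudin Cldn8 (-1.44 ± 0.17), Elapor1 (-1.42 ± 0.09) and the lysophosphatidic acid receptor Lpar3 (-1.40 ± 0.14) complete the 15 largest falls among genes whose arrays did not overlap. Another probe set moved by -0.11 for Bmpr1b and by -0.63 for Mycl.

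Stress genes gave single large rises. Of 9 heat shock genes tested 1 rose: Hspa1b, an inducible HSP70 with a near-identical copy, read 11.17, 11.58, 11.19, 10.76 and 11.27 at 40 ppm, against 9.57, 9.03, 9.23, 7.30 and 7.64 at 0 ppm (2.64 ± 0.43). Without the pair of arrays that stood apart 2 rose, the second being Dnajb1, which moved by 0.32 with all arrays (adjusted p = 0.058). Among 22 genes of the unfolded protein response and ATF4 9 rose and 2 fell (median 0.22), led by Psat1, an enzyme of serine synthesis (1.38 ± 0.16), the stress factor Atf3 (1.31 ± 0.17) and Atf4 (0.43 ± 0.07). Phgdh, the enzyme upstream of Psat1, fell by 0.52 ± 0.09. The second probe set of Atf4 moved by 0.03. With dim genes kept in the fit the counts of this list were 5 and 1. The rises numbered 4 without replicate 2 at 40 ppm or replicate 4 at 0 ppm, 5 without replicates 1 or 4 at 40 ppm or replicates 2 or 3 at 0 ppm, and 6 without replicate 5 at 40 ppm, and the falls were 1 or 2 throughout. Of 14 p53 targets tested 4 rose and 3 fell, with Cdkn1a, the inhibitor p21, at 0.90 ± 0.20, Aen at 0.50 ± 0.09 and Phlda3 at 0.43 ± 0.08. Its falls numbered 0 without replicates 2 or 5 at 0 ppm and 1 without replicates 1, 4 or 5 at 40 ppm or replicate 4 at 0 ppm, each left out alone, while 3 to 5 rose in these fits.

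Immediate early genes rose in part. Of 17 tested 8 rose and 1 fell, and without the pair of arrays that stood apart 4 rose and 1 fell. Without replicate 3 at 40 ppm or replicate 3 at 0 ppm alone 5 rose. Egr1, a zinc-finger factor induced by growth signals, read 9.34, 9.04, 9.30, 8.93 and 8.81 at 40 ppm, against 8.26, 7.37, 7.09, 7.30 and 7.35 at 0 ppm (1.61 ± 0.27). Myc rose by 0.91 ± 0.13, Junb by 0.85 ± 0.17 and Fos by 0.65 ± 0.13, while Nr4a2, whose probe sets differed in sign, fell by 0.47 ± 0.11. Glucocorticoid-responsive genes gave 6 rises and 0 falls among 15 tested, and 3 and 1 without that pair. With 1 array left out 3 to 10 rose: 3 without replicates 2 or 3 at 40 ppm or replicates 1, 3 or 4 at 0 ppm, and 10 without replicate 5 at 0 ppm. Lcn2 and Cdkn1a, which also stand in the acute phase and p53 lists above, were among the rises with all arrays. Sgk1, a kinase, rose by 0.37 ± 0.09. Fkbp5, the usual readout of the receptor, moved by 0.79 ± 0.29 (adjusted p = 0.0499) with probe sets that disagreed, and lost its call in 6 of the 10 fits that left out 1 array and without the pair, where it moved by 0.37.

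Clock genes moved in both directions. Of 15 tested 3 rose and 6 fell (median -0.20). Dbp, an output factor that activates the D-box, read 5.31, 5.85, 6.05, 6.28 and 6.28 at 40 ppm, against 8.14, 7.16, 7.57, 8.01 and 6.91 at 0 ppm (-1.60 ± 0.35, adjusted p = 0.00227). Its relatives Hlf (-1.03 ± 0.20) and Tef (-0.48 ± 0.11) fell too, as did Per3 (-0.96 ± 0.21) and Nr1d2 (-0.60 ± 0.14). Nfil3, a repressor at the same element, read 6.65 to 7.16 at 40 ppm, against 5.64 to 6.14 at 0 ppm (0.94 ± 0.14), and Cry1, a core repressor, rose by 0.53 ± 0.10. Arntl, the core activator BMAL1, rose by 0.48 ± 0.15, a call lost without the pair of arrays that stood apart. The hour at which each lung was taken is not given in the labels beyond the morning.

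Targets of PPAR and fatty acid oxidation were split. Of 17 tested 2 rose and 3 fell, and 4 rose without replicate 5 at 0 ppm. Fabp1, a fatty acid carrier, fell by 1.12 ± 0.21 and the peroxisomal thiolase Acaa1b by 0.95 ± 0.21, while the lipid droplet gene Plin2 rose by 0.40 ± 0.10 and Acadl, whose probe sets disagreed in sign, by 0.47 ± 0.09.

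Most markers of the cells of the alveolus and of blood vessels did not pass. Of 12 alveolar type 2 genes tested 3 rose and 1 fell (median 0.04): Il33, the kinase gene Lrrk2 (0.54 ± 0.09) and the collectin Sftpd (0.28 ± 0.06) rose, and Sftpc moved by 0.03 ± 0.03 (adjusted p = 0.565). The level of Sftpc, like that of Scgb1a1, lies near the top of the scale of these arrays, so a rise could hardly show. Without the pair of arrays that stood apart 3 genes of this list rose and 0 fell, and 0 fell also without replicates 2 or 3 at 40 ppm or replicate 4 at 0 ppm alone. Of 12 alveolar type 1 genes 2 rose and 0 fell (1 rose without replicates 1, 2 or 4 at 40 ppm or replicates 2 or 5 at 0 ppm), and Ager, the receptor that marks these cells, moved by 0.00 ± 0.04 (0.996). Of 15 endothelial genes 0 rose and 4 fell, among them the VEGF receptor Kdr (-0.45 ± 0.11) and the apelin receptor Aplnr (-1.06 ± 0.22). Without the pair 1 rose and 2 fell, and 2 fell without replicate 3 at 40 ppm or replicate 5 at 0 ppm alone. Of 16 fibroblast and smooth muscle genes 2 rose and 3 fell, and 2 and 1 without that pair. A single one fell without replicates 1 or 2 at 40 ppm or replicates 2 or 5 at 0 ppm, and a single one rose without replicate 4 of either group.

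Markers of leukocytes that could enter the lung mostly did not pass. Of 14 macrophage genes 2 rose and 4 fell. Siglecf, a lectin of alveolar macrophages and eosinophils, read 6.27, 6.16, 6.29, 6.24 and 6.43 at 40 ppm, against 7.17, 7.03, 7.12, 7.46 and 7.01 at 0 ppm (-0.88 ± 0.11, adjusted p = 1.15e-05). Without replicate 5 at 40 ppm or replicates 3 or 5 at 0 ppm, each left out alone, 0 rose and 4 fell, 1 rose without replicates 1, 2 or 4 at 40 ppm or replicate 4 at 0 ppm, and without the pair of arrays that stood apart 2 rose and 2 fell, with Pparg, the regulator of alveolar macrophages (-0.39 ± 0.11), among those lost. Of 13 monocyte and dendritic cell genes 1 rose and 2 fell: Fscn1, an actin bundler of mature dendritic cells, rose by 0.82 ± 0.09, and Csf1r, the receptor that monocytes and macrophages need, fell by 0.50 ± 0.07 on the log2 scale. Of 11 neutrophil genes 2 rose, both of which also stand in other lists (Lcn2 and Mmp8). With replicate 1 at 40 ppm left out alone, 1 rose. Without replicate 5 at 40 ppm or replicate 4 at 0 ppm alone, 1 gene of this list fell. The granule genes S100a8 (-0.12 ± 0.30, 0.798) and S100a9 (-0.17 ± 0.29, 0.715) did not pass. Of 8 B cell genes 0 passed, and of 14 T and NK cell genes 1 did (Cd8a, which fell by 0.31 ± 0.10 on the log2 scale, a call lost without the pair of arrays that stood apart and without replicates 1 or 2 at 40 ppm or replicate 2 at 0 ppm alone).

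Set directly against the lungs at 10 ppm, those at 40 ppm differed in 108 genes, of which 37 were higher (0.324% of genes tested) and 71 lower (0.622%). The count is not firm. It ran from 53 without replicate 4 at 10 ppm to 276 without replicate 5 at 10 ppm, and it was 230 without replicate 1 and 178 without replicate 5 at 40 ppm, 178 without replicate 1 at 10 ppm, 56 without replicate 2 and 55 without replicate 3 at 40 ppm, and 60 without replicate 3 at 10 ppm. With only the lungs at 40 and 10 ppm in the fit it was 6.

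Cyp1a1 set these lungs apart: it read 3.99 to 5.31 at 40 ppm, against 7.63, 7.87, 7.43, 7.75 and 5.09 in replicates 1 to 5 at 10 ppm (-2.59 ± 0.40, 40 minus 10 ppm, adjusted p = 0.00236). A single array at 10 ppm, replicate 5, came down to the level of the 40 ppm arrays. Pigr was lower too, at 6.15 to 8.23 at 40 ppm, against 8.40 to 9.45 at 10 ppm (-1.94 ± 0.33), and so were Acsm1 (-1.67 ± 0.25), Mycl (-1.06 ± 0.18), Cckar (-1.01 ± 0.11), Cldn10 (-0.84 ± 0.11), Scgb3a2 (-0.65 ± 0.12) and Cyp2f2 (-0.56 ± 0.08, 0.00194). In all, 9 of the 15 club cell genes tested were lower at 40 than at 10 ppm, and 0 were higher. Prss22 was higher, at 6.05 to 7.30 at 40 ppm, against 5.29, 3.80, 3.92, 3.54 and 6.72 at 10 ppm (2.23 ± 0.44, 0.0143), as were the chloride channel accessory genes Clca3a1 (1.20 ± 0.18) and Clca3a2 (1.36 ± 0.18, with 1 of 3 probe sets at -0.11), the collagen gene Col8a1 (1.04 ± 0.21) and the phospholipase Pla1a (1.03 ± 0.19). Slfn4, an interferon-responsive gene of myeloid cells, was lower at 40 ppm (-1.12 ± 0.22, 0.0134), being 0.39 above air at 40 ppm (adjusted p = 0.195) and 1.5 above air at 10 ppm.

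For the antiviral genes no difference between 40 and 10 ppm passed. The differences (40 minus 10 ppm) were -0.36 ± 0.41 for Cxcl10 (adjusted p = 0.733), -0.47 ± 0.26 for Mx1 (0.401) and -0.30 ± 0.25 for Oasl1 (0.608), and the list median was -0.35, with 0 of 25 members passing. A p that misses the threshold does not show that the doses acted alike. Both contrasts with air share the air arrays, and their values stand side by side: the median change of the antiviral list was 1.91 at 40 ppm and 2.33 at 10 ppm, and that of the DNA replication list was 0.66 at 40 ppm and 0.68 at 10 ppm. The club cell list had a median of -1.04 at 40 ppm, with 15 of 15 down, and of -0.29 at 10 ppm, with 6 of 15 down. At 10 ppm 7.67% of all genes rose and 4.9% fell.

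Between 40 and 120 ppm no gene passed, which does not show that these doses acted alike. Of 11406 genes 0 passed in limma, and the lowest adjusted p was 0.188. An unadjusted p under 0.05 was seen for 839 genes (7.36%), where 570.3 would be expected with no difference. With replicate 4 or replicate 5 at 40 ppm left out alone, 1 gene passed. At 120 ppm 14.3% of genes rose and 9.65% fell relative to air. The club cell list had a median change from air of -0.71 there with 11 of 15 down, and Cyp1a1 changed by -3.15 from air there. Cyp2f2 was lower at 40 ppm than at 120 ppm by a difference of -0.35 ± 0.08, which did not pass (adjusted p = 0.351).

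**Figure D4:**
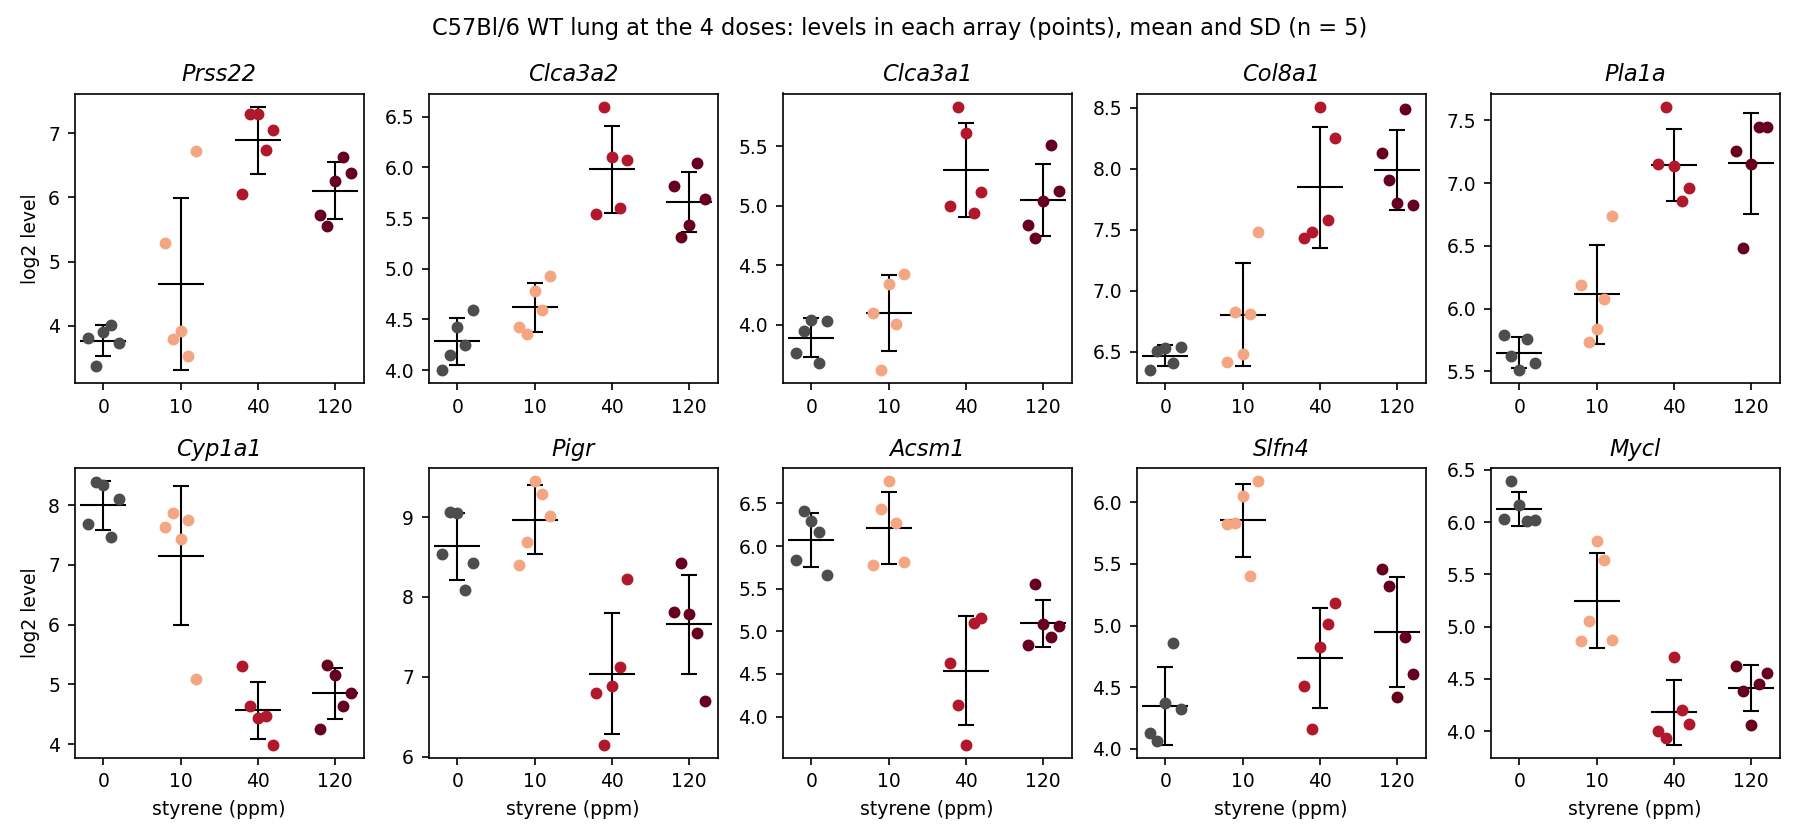
Log2 signal (vertical axes) of 10 genes in the 5 WT arrays at each of 0, 10, 40 and 120 ppm (horizontal axes), with bars for the mean and SD. Cyp1a1 read 7.47 to 8.38 at 0 ppm, mostly the same at 10 ppm with 1 array at 5.09, and 3.99 to 5.31 at 40 ppm.

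The response to 40 ppm was then set against that of KO lungs, as the difference of the changes. In KO lungs 0 genes passed at 40 ppm in limma (lowest adjusted p 0.424, and 564 genes or 4.94% with an unadjusted p under 0.05). The difference itself passed for 1590 genes, with 811 (7.11%) more positive in WT and 779 (6.83%) more negative. For Cxcl10 it was 4.20 ± 0.44 (WT minus KO, adjusted p = 1.27e-08), the KO arrays reading 3.80, 3.75, 3.88, 3.71 and 3.56 at 40 ppm, against 3.92, 3.58, 3.96, 3.35 and 3.74 at 0 ppm. Oasl1 (3.74 ± 0.28), Saa3 (3.61 ± 0.44), Gm9706 (3.50 ± 0.25) and Mx1 (3.48 ± 0.27) had the next largest positive differences among genes that passed. On the negative side stood Cyp1a1 (-2.87 ± 0.48), Lypd2 (-2.54 ± 0.46), Chad (-2.51 ± 0.45), Muc5b (-2.10 ± 0.70) and Mycl (-1.92 ± 0.21). Within KO lungs the changes of these 10 genes ran from -0.56 ± 0.22 (Cyp1a1) to 0.16 (Gm9706), and none passed.

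By list, the difference between WT and KO passed as more positive for 24 of 25 antiviral, 17 of 27 DNA replication and 12 of 18 sterol genes, and as more negative for 14 of 15 club cell genes. Among the DNA replication genes 1 differed the other way. The probe set of Cyp2f2 read 11.68, 11.71, 11.61, 11.62 and 11.65 in KO lungs at 40 ppm, against 11.66, 11.59, 11.57, 11.81 and 11.76 at 0 ppm, so it was bright in lungs labelled as knockouts. The labels do not say whether this probe set lies inside the deletion, so the reading checks no label. The median of a WT array lay between 4.53 and 4.60, that of a KO array between 4.09 and 4.20, so levels are compared here within a strain only.

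In CD-1 lungs 1 gene (0.00877%) passed at 40 ppm. It was Pon1, which read 8.80, 9.32, 9.45, 8.93 and 9.81 at 40 ppm, against 10.53, 10.78, 10.65, 10.97 and 10.68 at 0 ppm (-1.46 ± 0.19, adjusted p = 0.00255). The fall of Pon1 in WT did not differ from it detectably (-0.13 ± 0.25, WT minus CD-1, adjusted p = 0.848). The difference in response passed for 184 genes, 90 (0.789%) more positive in WT and 94 (0.824%) more negative. Saa3 (3.15 ± 0.63), Timp1 (2.62 ± 0.64), Rsad2 (2.56 ± 0.48), Fgg (2.55 ± 0.37) and Oasl1 (2.24 ± 0.49) had the largest positive differences among genes that passed, and Cyp1a1 (-4.17 ± 0.71), Chad (-2.39 ± 0.49), Mycl (-1.77 ± 0.29), Acsm1 (-1.61 ± 0.36) and Per3 (-1.42 ± 0.38) the largest negative ones. Cyp1a1 moved by 0.74 ± 0.55 in CD-1 itself.

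One CD-1 array bore on this comparison. Replicate 4 at 40 ppm read 9.05 for Saa3, 9.69 for Timp1 and 7.09 for Cxcl10, while the other 4 read 5.48 to 6.36, 6.22 to 6.67 and 3.52 to 5.44. Without it 707 genes differed between WT and CD-1. The count was 300 without WT replicate 5 at 40 ppm and 88 without WT replicate 3 at 40 ppm, and between 94 and 114 without CD-1 replicate 2 at 0 ppm, CD-1 replicates 2, 3 or 5 at 40 ppm, WT replicates 2, 3 or 5 at 0 ppm or WT replicate 2 at 40 ppm, each left out alone. Leaving out any other array gave 125 to 196. The antiviral list had a median change of 0.82 in CD-1 lungs with 0 of 25 passing, and 3 of 25 members differed between WT and CD-1. For Cxcl10 the difference was 2.95 ± 0.81 and did not pass (adjusted p = 0.0539). Of 15 club cell genes 6 were more negative in WT, Cyp2f2 among them (-0.79 ± 0.13).

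**Figure D5:**
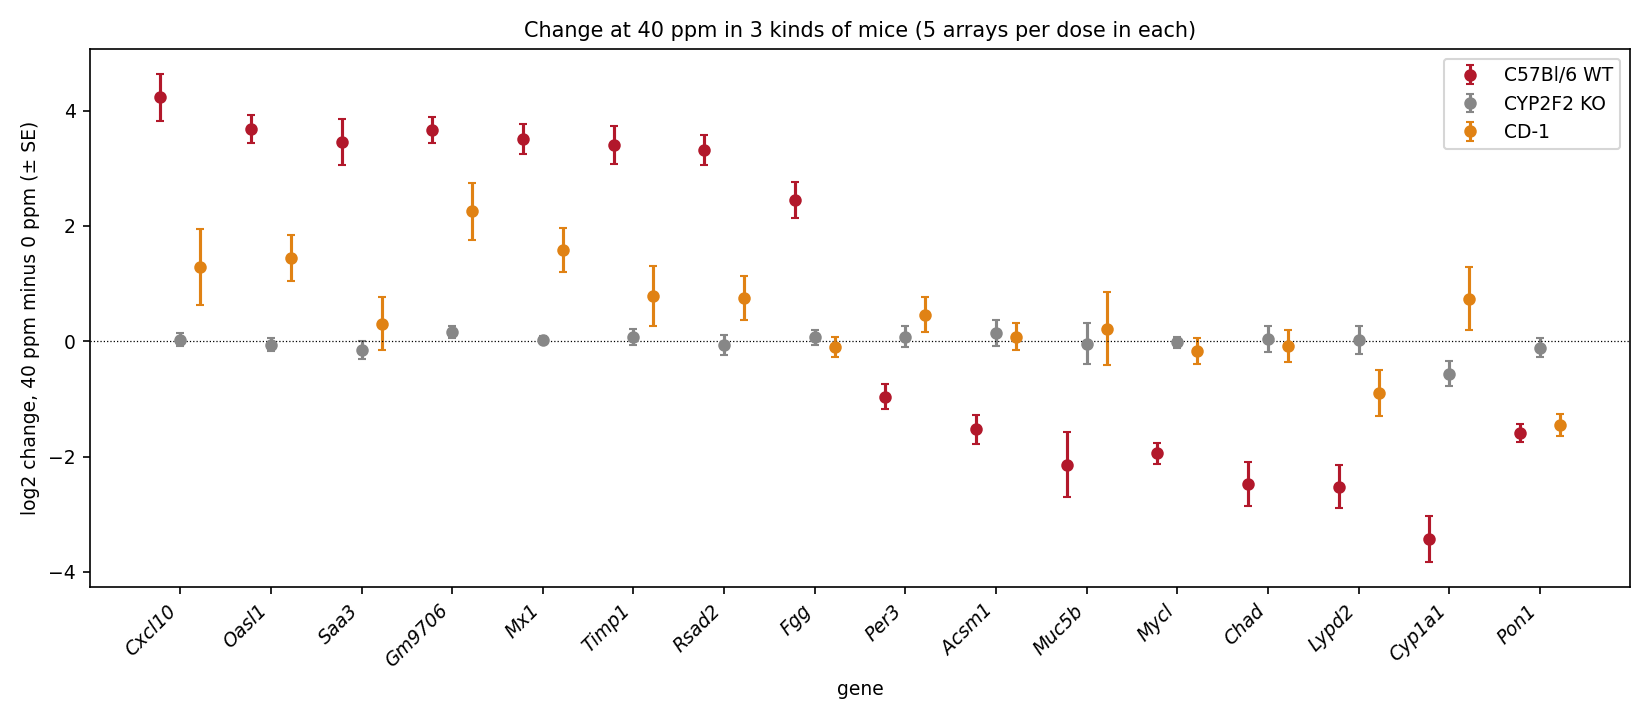
Log2 change at 40 ppm (40 minus 0 ppm) with its SE for 16 genes in WT, KO and CD-1 lungs, n = 5 arrays per group. WT values reach 4.23 for Cxcl10 and -3.43 for Cyp1a1, KO values stay near 0, and Pon1 fell in both WT (-1.59) and CD-1 (-1.46).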

How the data were processed

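Adult male mouse lungs were profiled on Affymetrix arrays. The deposited values are log2 signals for 45037 probe sets in 80 arrays, and the submitters' processing notes name RMA and Partek, without versions or settings. Array medians differed between strains, so levels were compared within a strain only. Each probe set with 1 gene symbol (28898, of which 28689 matched the RefSeq gene table by gene ID) was used, 551 had several symbols and 15588 were not in the annotation. The brightest probe set stood for a gene (17097 genes, 7180 with more than 1). Another probe set moved far less for some further named genes, such as Cdt1 (0.02), Aen (0.09), Aurkb (0.10), Lox (0.12) and Fscn1 (0.18). Genes above the table median (4.28) in 5 or more arrays were tested (11406). The number of arrays limits the precision (standard error of a change 0.083 in the median gene).

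Linear models were fitted in limma 3.58.1 (R 4.3.3, with data.table at version 1.17.8 for reading) over the 20 WT arrays with a mean per dose, and over 40 arrays for differences in response between strains, with eBayes and Benjamini-Hochberg adjustment. Separate animals are taken from the label of biological replicates, and nothing says whether they shared a chamber run. Alternatives were other scalings, filters, probe set choices, spread models, array weights, a replicate block and left-out arrays, and 2 of them (lists without the pair of arrays that stood apart, and without 40 ppm replicate 5) were added after seeing the data. Scripts were tested on simulated data.

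Members and gene lists were chosen with earlier results of these data known. The rule for names took Cyp2f2, the 15 largest rises and 15 largest falls whose arrays did not overlap, up to 8 members of each list by lowest p with the strongest member against its median, and the 5 largest differences in each direction of the other contrasts. Named beyond it after their values were seen were Ager, Bpifa1, Foxj1, Gbp2, Gbp7, Ifitm3, Ifnar1, Irf1, Irf3, Jak1, Scgb1a1, Sftpc, the squamous and skeletal muscle genes, the antiviral genes listed for a promoter match, and any gene given in a contrast outside that for which the rule took it.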

Additional observations from a re-analysis of the deposited data

Results flagged for a closer look

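Among the 183 genes examined in both groups (366 groups of 5 arrays), 17 groups (4.64%) held 1 array far from the other 4, and chance alone gives such an array in about 1 in 20 groups. At 40 ppm there were 8. Replicate 5 was high for Chad (7.97, others 5.74 to 6.28), Ccdc153 (10.04, others 9.13 to 9.32) and Cd14 (9.52, others 9.32 to 9.38). Replicate 3, which carried squamous and skeletal muscle genes, was high for Atf4 (10.61, others 10.39 to 10.44) and low for Cx3cl1 (5.14, others 5.8 to 5.97). Replicate 1 was high for Osmr (9.64, others 9.32 to 9.38) and low for Sftpc (13.82, others 13.87 to 13.88), and replicate 4 was high for Pole (4.78, others 4.27 to 4.39).

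At 0 ppm there were 9. Replicate 1, the other array with squamous and skeletal muscle genes, was high for Sprr1a (8.74, others 4.75 to 5.55), Egr1 (8.26, others 7.09 to 7.37) and Cxcl10 (4.28, others 3.33 to 3.59). Replicate 5 was high for Asgr1 (6.26, others 4.48 to 4.91) and low for Aen (6.60, others 6.79 to 6.86) and Ccl12 (3.60, others 4.03 to 4.14). Replicate 2 was high for Birc5 (5.20, others 4.36 to 4.52) and Krt19 (10.99, others 10.76 to 10.82), and replicate 3 was low for Myc (5.75, others 5.94 to 5.98).

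The response to 40 ppm differed between WT and KO lungs, by a test of the difference itself, in 811 genes that were more positive in WT and 779 that were more negative. The named ones are Cxcl10 (4.20), Oasl1 (3.74), Saa3 (3.61), Gm9706 (3.50) and Mx1 (3.48) on one side, and Cyp1a1 (-2.87), Lypd2 (-2.54), Chad (-2.51), Muc5b (-2.10) and Mycl (-1.92) on the other, as log2 differences of the changes, WT minus KO.

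Between WT and CD-1 lungs the same test gave 90 genes more positive in WT and 94 more negative. The log2 differences, WT minus CD-1, were 3.15 for Saa3, 2.62 for Timp1, 2.56 for Rsad2, 2.55 for Fgg and 2.24 for Oasl1, and -4.17 for Cyp1a1, -2.39 for Chad, -1.77 for Mycl, -1.61 for Acsm1 and -1.42 for Per3.

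Of 6760 probe sets that the annotation does not name, 539 (7.97%) were higher and 715 (10.6%) lower at 40 ppm than at 0 ppm. Of the named genes tested, each read by its brightest probe set, 13.7% rose and 12.4% fell. The former shares count probe sets and the latter count genes, so they are not in the same units.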

How the results depend on the processing

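The 40 ppm change from air gave 2375 to 3100 genes under 10 alternatives and 2432 (without 0 ppm replicate 5) to 2979 (without 40 ppm replicate 5) with 1 array left out, against 2970 as reported. At 1.5-fold or more the counts were 482 to 574 and 538 to 611, against 566. For WT against KO they were 1301 to 1905 and 1330 to 1699, against 1590. The contrast of 40 with 10 ppm (108) gave 6 with only these groups in the fit, 71 with the replicate block, 49 without WT 0 ppm replicate 1 and WT 40 ppm replicate 3, and 178 with array quality weights, and 53 to 276 with 1 array left out. The contrast of 40 with 120 ppm gave 0 to 1. WT against CD-1 (184) gave 77 without that pair, 602 with array quality weights, and 88 to 707 with 1 array left out. The cause of these moves was not tested. With array medians made equal, the split of higher and lower genes was 53 and 56 in place of 37 and 71 for 40 against 10 ppm, and 93 and 52 in place of 90 and 94 for WT against CD-1.

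The labels number replicates in every group. Deviations of arrays with the same number at 40 and 0 ppm correlated at -0.182 to 0.186, and 1 of 5 arrays correlated best with its own number, so the numbers were not taken as pairs. The replicate block gave 2928 genes for 40 against 0 ppm, 572 of them at 1.5-fold or more, 0 for 40 against 120 ppm, 1617 for WT against KO and 159 for WT against CD-1.

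Of 183 named genes checked in this way, 167 were called at 40 against 0 ppm. Of these, 155 kept the call under all 10 alternatives and all 10 fits that left out 1 array. No gene checked changed direction while called. Some genes named above, Ifitm3 and Mmp8 among them, were not in this check. Genes lost in at least 1 of these fits were Selp, Arntl, Fkbp5, Scgb1a1, Bpifa1, Tubb4b, Inmt, Pparg, Cd8a, Sprr1a, Scd1 and Thrsp. Signals near the table median, such as those of Hmgcs1, limit what can be measured for dim genes. The air arrays of Apol9a, Ccl12, Cxcl10, Il6, Mx1, Oasl1 and Prss22 also lay near or below that median. The size of these rises therefore rests on dim signals.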

Other observations

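The pair of arrays that stood apart shared genes of a squamous lining. Krtdap read 10.91 in WT 40 ppm replicate 3 and 10.94 in WT 0 ppm replicate 1, against 2.75 to 4.43 in the other 18 WT arrays. Lor, the loricrin of cornified cells, read 11.25 and 9.70, against 2.81 to 5.37. Genes of fast skeletal muscle were higher in WT 40 ppm replicate 3 than in WT 0 ppm replicate 1: Tnnc2 read 10.70 there and 8.62 in WT 0 ppm replicate 1, Mylpf 9.88 and 7.62, and Myh1 10.22 and 6.83.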
